A study of Drosophila melanogaster with 24 samples.

Results

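Dpr and DIP proteins are immunoglobulin-domain proteins on the surface of fly neurons. The genes described here are those whose array annotation carries 1 symbol of the form dpr followed by a number, or a symbol beginning with DIP-. This gave 30 genes, 20 Dpr and 10 DIP, of 11982 genes with 1 symbol on the array. Together they have 53 probe sets, and each gene is represented by the probe set whose mean over all 24 arrays was highest. The annotated symbols were dpr1 to dpr20 and DIP-alpha, -beta, -gamma, -delta, -epsilon, -zeta, -eta, -theta, -iota and -kappa. dpr21 and DIP-lambda are not analysed here.

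A Dpr on one neuron binds a DIP on another across the gap between their membranes, and each DIP accepts only some Dprs. Different neurons carry different sets, so the family is regarded as a surface code by which neurons recognise synaptic partners, and it is known for layer-specific wiring in the fly visual system and at the larval neuromuscular junction. DIP-gamma binds Dpr11, DIP-alpha binds Dpr6 and Dpr10, DIP-delta binds Dpr12, DIP-kappa binds Dpr7, and DIP-beta accepts a broader set. PDF neurons are clock neurons that release the peptide PDF, and the large and small kinds send their axons to different targets, the large ones to the optic lobe and the small ones to the dorsal brain.

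The arrays measured RNA of adult brain cells that carried GFP under drivers specific to the cell kind and were collected by hand. Small PDF neurons were taken at ZT12 and ZT0 (2 arrays each), large PDF neurons of per01 flies at ZT12 and ZT0 (2 each), large PDF neurons at ZT0 and ZT12 (3 each) and at ZT6 and ZT18 (2 each), and ELAV neurons, which stand for neurons in general, at ZT12 and ZT0 (3 each). ZT is zeitgeber time in hours in a cycle of 12 h light and 12 h dark. All flies except per01 had the yw background and were of both sexes, whereas the per01 flies, which carry a null allele of the clock gene period, were males. About 50 brains were pooled per sample, so a value is an average over many cells and animals, and ELAV values are averages over many neuron types. In such pools fewer cells carrying a transcript and less transcript per cell cannot be told apart. The labels do not name the drivers.

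Values are the deposited log2 intensities. Array medians were 2.575 to 2.596 on the 4 per01 arrays, against 3.14 to 3.44 on the 20 wild-type arrays, and replicate arrays correlated at 0.936 to 0.979 over all probe sets. The labels of PDF against ELAV arrays were checked with Pdf. It was at 15.8 to 15.9 on small PDF arrays, 16.2 on per01 arrays and 15.5 to 16.0 on those of wild-type large PDF neurons. On ELAV arrays it was at 2.76 to 5.34. Between small and large PDF neurons Pdf was not called (limma, -0.04, adjusted p = 0.949), so it could not check those labels against each other. The neuronal marker elav was at 11.3 to 12.5 on the PDF arrays of wild-type flies. The GABA marker Gad1 was at 7.11 on small PDF ZT0 replicate 1 and 9.51 on large PDF ZT18 replicate 2, and at most at 2.99 on the other wild-type PDF arrays, against 13.3 to 14.4 on ELAV arrays. The monoamine marker Vmat was at 9.70 and 7.05 on the small PDF ZT12 arrays and 2.43 and 2.55 on the small PDF ZT0 arrays. The glial marker Gs2 was at 9.53 on large PDF ZT0 replicate 2, where the glial marker repo was at 3.12. The glutamate marker VGlut was at most at 3.42 on every array, ELAV included. On ELAV arrays Vmat was at 14.6 to 14.8 and the acetylcholine marker ChAT at 8.33 to 10.2. The ELAV pool need not hold all neuron types evenly, so lower than in ELAV neurons means lower than in this pool.

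A gene is called on in a kind when it was at log2 5 or more on all arrays of that kind. By this rule 12 of the 30 genes were on in small PDF neurons (9 Dpr and 3 DIP), 10 in large PDF neurons (8 Dpr and 2 DIP) and 17 in ELAV neurons (14 Dpr and 3 DIP). The share on was 40% of the Dpr and DIP genes in small PDF neurons, against 36.9% of all 11982 genes. In large PDF neurons it was 33.3% of the family, against 32.4% of all genes, and in ELAV neurons 56.7%, against 38.2%. The share of the family on in PDF neurons was thus near that of all genes, and the share on in ELAV neurons was above it. In per01 large PDF neurons 10 members were on (9 Dpr and 1 DIP), beside 33% of all genes. Single arrays held 15 to 19 members at log2 5 or more in small PDF, 11 in each per01 array, 12 to 16 in large PDF and 19 to 21 in ELAV neurons. The share of the whole array at that level was also lower with per01, at 28.6% to 29.9%, against 32.9% to 36.6% with wild-type flies. The lower per01 counts thus need not be particular to the family.

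Each kind of neuron had its own combination. A set of 8 members were on in all of small PDF, large PDF and ELAV neurons: dpr5, dpr7, dpr9, dpr11, dpr14, dpr15, dpr19 and DIP-kappa. Only DIP-beta was on in small PDF neurons and in neither other kind, and only DIP-delta was on in large PDF neurons and in neither other kind. dpr10, dpr18 and DIP-gamma were on in small PDF and ELAV neurons, and dpr8 was on in large PDF and ELAV neurons. dpr6, dpr16, dpr17, dpr20 and DIP-theta were on in ELAV neurons alone. The remaining 11 were on in no kind, and 5 of these (dpr1, dpr3, dpr13, DIP-epsilon and DIP-eta) stayed under log2 5 on every array.

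Some of these assignments turned on 1 array. dpr10 missed the rule in large PDF neurons through ZT12 replicate 1, at 4.96, while the other arrays of that kind ran up to 9.42. dpr8 missed it in small PDF neurons through ZT0 replicate 1, at 4.53, and dpr6 through ZT12 replicate 1, at 3.44. In large PDF neurons dpr6 was at log2 5 or more on 8 of 10 arrays. Its difference there from ELAV neurons was -0.004 (limma, adjusted p = 0.995), so on in ELAV neurons alone does not mean near background elsewhere. DIP-delta missed it in ELAV neurons through 1 array at 4.72, with the other 5 up to 6.18. Allowing 1 array under log2 5 raised the number on to 14 in small PDF, 11 in large PDF and 18 in ELAV neurons.

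**Figure D1:**
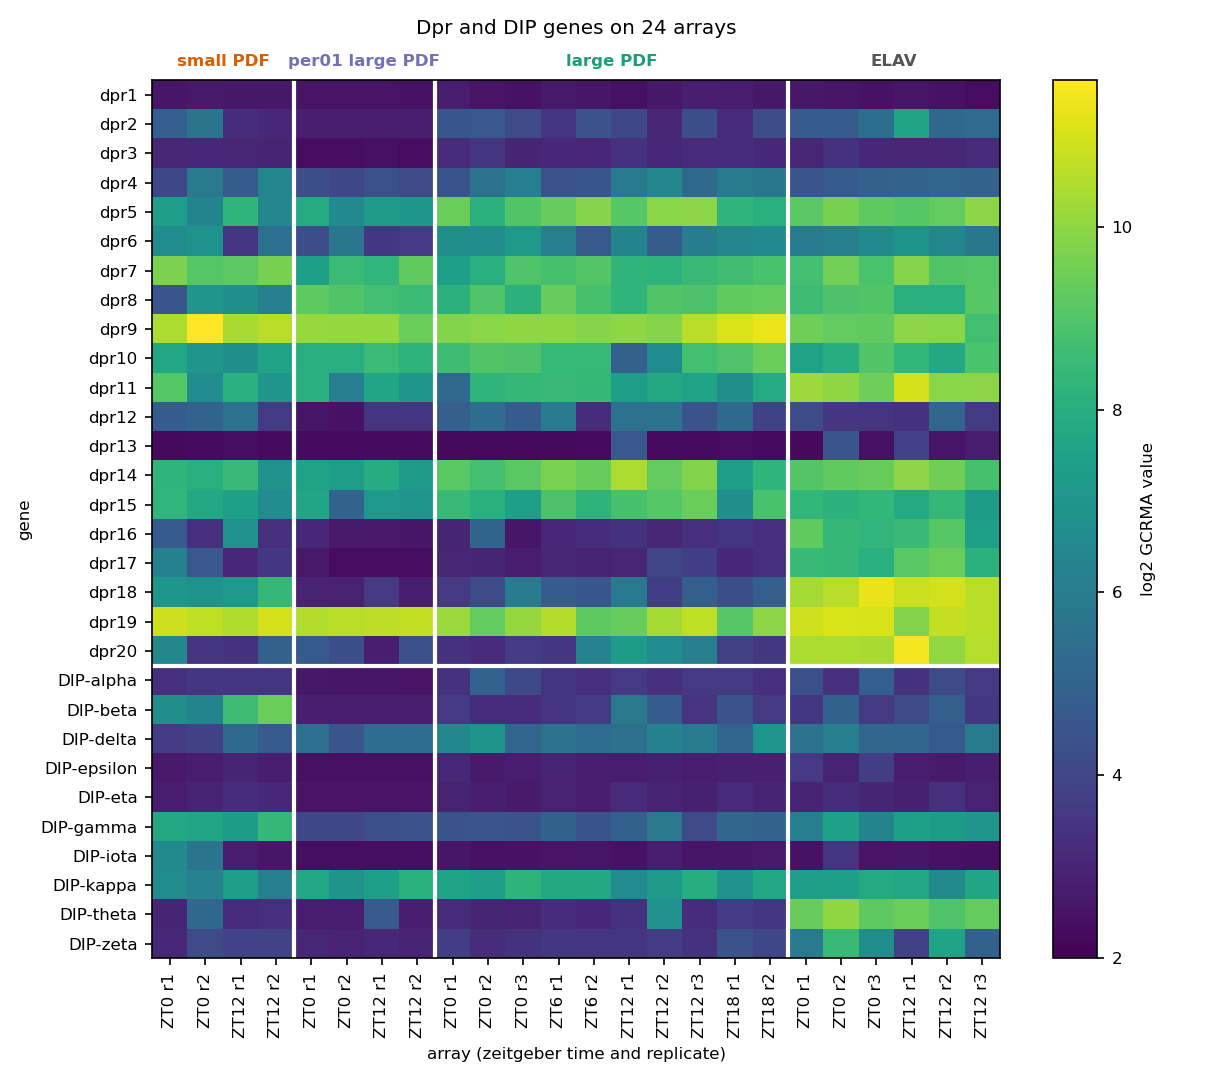
Colour gives the log2 value of each of the 30 Dpr and DIP genes (rows, Dpr above the white line) on each of the 24 arrays (columns, grouped by kind of neuron, with zeitgeber time and replicate below). DIP-beta stands out on the 4 small PDF arrays (6.34 to 9.40), and dpr16, dpr17, dpr18, dpr20 and DIP-theta on the 6 ELAV arrays.

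Against ELAV neurons, more members were lower than higher in both PDF kinds. Of 24 genes that could be tested (17 Dpr and 7 DIP), 10 were lower and 0 higher in large PDF neurons, and 11 were lower and 3 higher in small PDF neurons. Of the 8318 probe sets tested, 24.4% differed in large PDF neurons (12.5% lower and 11.9% higher) and 27.6% in small PDF neurons (14% lower and 13.6% higher). The median log2 difference of the tested members was -0.30 in large PDF neurons, beside -0.01 over all probe sets, and -1.01 in small PDF neurons, beside 0.02. The 6 genes that were too low to be tested (dpr1, dpr3, dpr13, DIP-alpha, DIP-epsilon and DIP-eta) ran from 2.22 to 5.01 over all arrays. A gene was tested when it reached log2 5 on at least 2 arrays of the series. dpr2, dpr17 and DIP-zeta did so only with the ELAV arrays, and DIP-beta and DIP-iota only with those of small PDF neurons, so these counts and medians are a description. The comparisons share the ELAV arrays, so the 8 members lower in both are given side by side and not counted as a second observation.

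Among the DIPs, DIP-beta set small PDF neurons apart. It was at 8.56 and 9.40 on the small PDF ZT12 arrays and 6.75 and 6.34 on the ZT0 arrays, at 3.23, 3.59 and 5.86 (lowest, median and highest) on the 10 large PDF arrays, and at 3.54, 3.92 and 4.98 on the 6 ELAV arrays. Every small PDF array lay above every large PDF and ELAV array. The difference was 3.63 ± 0.41 (SE) from ELAV (adjusted p = 3.09e-06) and 3.74 ± 0.41 from large PDF neurons (adjusted p = 9.45e-06). Since the ELAV arrays were all under log2 5, where values are mostly background, the fold is given as at least 6.80-fold higher in small PDF neurons, with values under 5 raised to 5. Outside small PDF neurons DIP-beta reached log2 5 on 1 large PDF array alone, so it entered the test through the kind in which it was high. Of the 3 other DIP-beta probe sets 2 could be tested. They gave the same direction, at 2.30 and 2.40 against ELAV (adjusted p = 7.52e-05 and 0.000354). Their small PDF arrays ran from 3.32 to 7.64 and from 2.48 to 6.55, and their large PDF arrays up to 5.03 and 2.80. Small and large PDF arrays thus overlapped there. The second reached log2 5 on small PDF arrays alone, and both were highest there, so these calls are a description.

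DIP-gamma separated the PDF kinds in another way. It was at 7.26 and 8.39 at ZT12 and 7.79 and 7.63 at ZT0 on small PDF arrays, at 4.21, 4.75 and 5.82 on large PDF arrays, and at 6.15, 7.11 and 7.50 on ELAV arrays. The large PDF arrays lay wholly below those of small PDF and ELAV neurons, while small PDF and ELAV arrays overlapped. The difference was -2.19 ± 0.29 in large PDF neurons from ELAV (adjusted p = 1.91e-05) and 3.03 ± 0.32 in small from large PDF neurons (adjusted p = 6.63e-06). Small PDF neurons stood at 0.84 ± 0.32 from ELAV, which was not called (adjusted p = 0.0611). It was called higher there with a filter at log2 7 (adjusted p = 0.0482) and with values under 5 raised to 5 (adjusted p = 0.0222).

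DIP-delta ran the other way between the PDF kinds. It was at 5.33 and 4.72 at ZT12 and 3.70 and 3.90 at ZT0 on small PDF arrays, at 5.12, 5.82 and 7.0 on large PDF arrays and at 4.72, 5.39 and 6.18 on ELAV arrays. Only 1 small PDF array reached the range of large PDF neurons. It was lower in small than in large PDF neurons, at -1.63 ± 0.40 (adjusted p = 0.00904), a call that was lost with values under 5 raised to 5 (-0.96, adjusted p = 0.0810) and with ZT12 arrays only (-0.89, adjusted p = 0.380). Neither PDF kind was called against ELAV (0.59 ± 0.36 in large PDF, adjusted p = 0.255, and -1.04 ± 0.40 in small PDF, adjusted p = 0.0622), although small PDF neurons were called lower with ZT0 arrays only (-1.86, adjusted p = 0.0337) and with only the groups compared (adjusted p = 0.0420).

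DIP-theta, a partner of the Dpr1 to Dpr5 group, was near background in both PDF kinds. It was at 3.23 and 3.33 at ZT12 and 2.99 and 5.19 at ZT0 on small PDF arrays, at 2.97, 3.22 and 6.87 on large PDF arrays, and at 8.96, 9.34 and 10.01 on ELAV arrays. All 6 ELAV arrays lay above all PDF arrays, although 1 large PDF array, ZT12 replicate 2, was far above the rest of its kind. The differences from ELAV were -5.69 ± 0.58 in small PDF (adjusted p = 9.25e-07) and -5.61 ± 0.52 in large PDF neurons (adjusted p = 3.15e-07).

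DIP-zeta was more variable among ELAV arrays. It was at 3.92 and 3.97 at ZT12 and 3.09 and 4.21 at ZT0 on small PDF arrays, at 3.22, 3.53 and 4.45 on large PDF arrays, and at 3.88, 6.31 and 8.51 on ELAV arrays. The lowest ELAV array lay within the range of both PDF kinds. DIP-zeta was lower, at -2.47 ± 0.55 in small PDF (adjusted p = 0.00263) and -2.78 ± 0.49 in large PDF neurons (adjusted p = 0.000425). With values under 5 raised to 5 the difference was 2.75-fold in each. ELAV arrays under 5 were raised as well, so this is not a lower bound. Both calls were lost with ZT12 arrays only (-1.54 and -1.97, adjusted p = 0.199 and 0.0636). It reached log2 5 on ELAV arrays alone, so it could enter the test only through the kind in which it was high.

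DIP-kappa, the receptor of Dpr7, was on in every kind. It was at 7.33 and 6.13 at ZT12 and 6.64 and 6.26 at ZT0 on small PDF arrays, at 6.63, 7.66 and 8.24 on large PDF arrays, and at 6.61, 7.55 and 7.86 on ELAV arrays. The kinds overlapped, and no difference between them was called (adjusted p = 0.929 for large PDF and 0.0721 for small PDF against ELAV). DIP-alpha was at 3.29 to 3.52 on small PDF arrays, at 3.28 to 5.01 in large PDF and at 3.29 to 4.86 in ELAV neurons, and reached log2 5 on large PDF ZT0 replicate 2 alone. DIP-iota is described with the times of day, since its level in small PDF neurons depended on them.

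**Figure D2:**
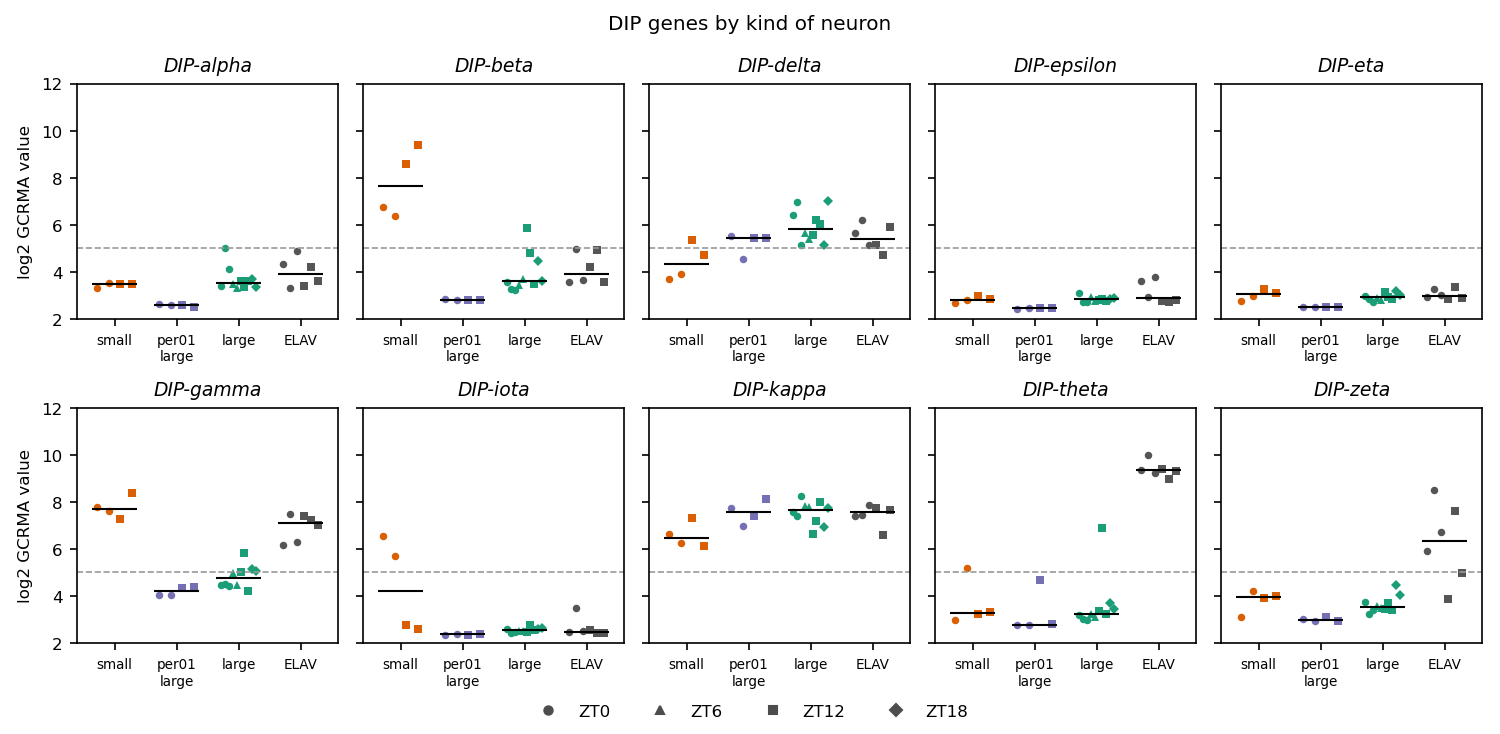
Each point is the log2 value of a DIP gene on 1 array, with kinds of neuron along the axis, symbols for zeitgeber time, a bar at the median of the kind and a dashed line at log2 5. DIP-beta lies above the line on small PDF arrays, DIP-delta on all 10 large PDF arrays, and DIP-theta on all 6 ELAV arrays.

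Among the Dprs, dpr16, dpr17, dpr18 and dpr20 carried the largest differences from ELAV neurons. dpr17, a Dpr of the DIP-gamma group, was at 3.07 and 3.51 at ZT12 and 6.22 and 4.59 at ZT0 on small PDF arrays, at 2.77, 3.03 and 3.99 on large PDF arrays, and at 8.07, 8.45 and 9.46 on ELAV arrays. No PDF array reached the ELAV range. It was lower, at -4.27 ± 0.32 in small PDF (adjusted p = 1.71e-08) and -5.36 ± 0.28 in large PDF neurons (adjusted p = 1.65e-10, at least 12.3-fold). Outside ELAV neurons dpr17 reached log2 5 on 1 small PDF array alone, so it too entered the test through the kind in which it was high.

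dpr16, also of the DIP-gamma group, was at 6.95 and 3.32 at ZT12 and 4.76 and 3.32 at ZT0 on small PDF arrays, at 2.57, 3.27 and 5.08 on large PDF arrays, and at 7.44, 8.43 and 9.25 on ELAV arrays. Its highest small PDF array stayed below the lowest ELAV array. The gene was lower, at -3.91 ± 0.59 in small PDF (adjusted p = 7.21e-05) and -5.10 ± 0.52 in large PDF neurons (adjusted p = 1.03e-06).

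dpr18 showed 3 separate levels. It was at 7.12 and 8.40 at ZT12 and 7.04 and 6.90 at ZT0 on small PDF arrays, at 3.59, 4.65 and 5.99 on large PDF arrays, and at 10.29, 10.72 and 11.29 on ELAV arrays. None of the 3 ranges overlapped another. It was lower than in ELAV neurons, at -3.39 ± 0.44 in small PDF (adjusted p = 1.78e-05) and -6.03 ± 0.40 in large PDF neurons (adjusted p = 3.82e-09), and higher in small than in large PDF neurons by 2.64 ± 0.44 (adjusted p = 0.000506).

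dpr20 was at 3.36 and 4.96 at ZT12 and 6.48 and 3.47 at ZT0 on small PDF arrays, at 3.18, 3.77 and 7.28 on large PDF arrays, and at 10.05, 10.41 and 11.46 on ELAV arrays. The ELAV arrays again lay above all others. It was lower, at -5.97 ± 0.57 in small PDF (adjusted p = 4.27e-07) and -5.48 ± 0.51 in large PDF neurons (adjusted p = 3.38e-07).

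dpr11, the main partner of DIP-gamma, stayed on in PDF neurons but at a lower level. It was at 8.10 and 7.0 at ZT12 and 9.06 and 6.65 at ZT0 on small PDF arrays, at 5.32, 7.84 and 8.51 on large PDF arrays, and at 9.50, 9.96 and 10.98 on ELAV arrays. The gene was lower, at -2.38 ± 0.58 in small PDF (adjusted p = 0.00514) and -2.64 ± 0.52 in large PDF neurons (adjusted p = 0.00112). All PDF arrays lay below all ELAV arrays, and the small PDF call was lost with ZT0 arrays only (-2.04, adjusted p = 0.113). dpr2 was at 3.08 to 5.68 on small PDF, 3.04 to 4.59 on large PDF and 4.74 to 7.60 on ELAV arrays, lower, at -1.31 ± 0.42 in small PDF (adjusted p = 0.0262) and -1.41 ± 0.37 in large PDF neurons (adjusted p = 0.0102). Both dpr2 calls were lost with values under 5 raised to 5, and with ZT0 arrays only the large PDF call was lost (-0.54, adjusted p = 0.564) and in small PDF neurons its sign turned (0.27, adjusted p = 0.828).

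dpr9, a partner of DIP-beta, was the 1 Dpr that was higher in a PDF kind than in ELAV neurons. It was at 10.35 and 10.58 at ZT12 and 10.43 and 11.58 at ZT0 on small PDF arrays, at 9.83, 9.97 and 11.31 on large PDF arrays, and at 8.71, 9.39 and 9.93 on ELAV arrays. Every small PDF array lay above every ELAV array. It was higher by 1.31 ± 0.28 in small PDF neurons (adjusted p = 0.00198), a call that was lost with ZT12 arrays only (0.96, adjusted p = 0.112), and stood at 0.60 ± 0.25 in large PDF neurons, which was not called (adjusted p = 0.0955).

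dpr5, dpr8 and dpr14 were lower in small PDF neurons than in both other kinds, while large PDF and ELAV neurons did not differ by a called amount. dpr5 was at 8.28 and 6.40 at ZT12 and 7.33 and 6.35 at ZT0 on small PDF arrays, at 8.03, 9.23 and 9.91 on large PDF arrays, and at 9.08, 9.24 and 9.94 on ELAV arrays. It was lower in small PDF neurons, at -2.29 ± 0.38 from ELAV (adjusted p = 0.000210) and -2.15 ± 0.38 from large PDF neurons (adjusted p = 0.000806). Its small PDF arrays lay below the ELAV arrays, and 1 of them within the large PDF range.

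dpr8, a Dpr of the DIP-beta group, was at 6.80 and 6.14 at ZT12 and 4.53 and 7.09 at ZT0 on small PDF arrays, at 8.17, 8.94 and 9.36 on large PDF arrays, and at 8.06, 8.73 and 9.11 on ELAV arrays. All 4 small PDF arrays lay below every other wild-type array. It was lower in small PDF neurons, at -2.48 ± 0.39 from ELAV (adjusted p = 0.000105) and -2.44 ± 0.39 from large PDF neurons (adjusted p = 0.000290). A second dpr8 probe set was lower as well (-1.13 from ELAV, adjusted p = 0.00491, and -1.74 from large PDF neurons, adjusted p = 0.000299), and another, with a mean of 3.94 over all arrays, was not called (adjusted p = 0.725 and 0.779).

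dpr14 was at 8.51 and 6.95 at ZT12 and 8.29 and 8.04 at ZT0 on small PDF arrays, at 7.35, 9.23 and 10.41 on large PDF arrays, and at 8.79, 9.31 and 9.95 on ELAV arrays. Its small PDF arrays lay below all ELAV arrays and below the large PDF arrays of ZT0, ZT6 and ZT12, and the ZT18 arrays of large PDF neurons lay among them. It was lower in small PDF neurons, at -1.37 ± 0.33 from ELAV (adjusted p = 0.00461) and -1.47 ± 0.33 from large PDF neurons (adjusted p = 0.00469). Both calls were lost with ZT0 arrays only (-1.04 and -0.84, adjusted p = 0.155 and 0.306).

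dpr7, the partner of DIP-kappa, was lower in large PDF neurons than in both other kinds. It was at 9.19 and 9.65 at ZT12 and 9.72 and 9.07 at ZT0 on small PDF arrays, at 7.46, 8.57 and 9.04 on large PDF arrays, and at 8.74, 9.03 and 9.84 on ELAV arrays. The difference was -0.93 ± 0.29 in large PDF neurons from ELAV (adjusted p = 0.0272) and 1.16 ± 0.33 in small from large PDF neurons (adjusted p = 0.0211). Large PDF and ELAV arrays overlapped, and leaving out 1 array ended the call against ELAV in 4 of 12 cases (adjusted p at most 0.0751). Both dpr7 calls were lost with ZT0 arrays only (adjusted p = 0.182 and 0.111) and with ZT12 arrays only (adjusted p = 0.127 and 0.170).

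The other tested Dprs were not called in a comparison of wild-type kinds. dpr19 was at 10.45 to 10.96 on small PDF, 9.09 to 10.67 on large PDF and 9.80 to 11.06 on ELAV arrays, and dpr15, a DIP-gamma and DIP-beta partner, at 6.64 to 8.33 on small PDF, 6.73 to 9.39 on large PDF and 7.30 to 8.38 on ELAV arrays. These ranges overlapped. dpr10, a DIP-alpha and DIP-beta partner, was at 6.78 to 7.71 on small PDF, 4.96 to 9.42 on large PDF and 7.58 to 8.98 on ELAV arrays. dpr6, the other DIP-alpha partner, was at 3.44 to 6.93 on small PDF, 4.68 to 7.15 on large PDF and 5.76 to 6.96 on ELAV arrays. dpr4 and the DIP-delta partner dpr12 stayed at most at 6.44 and 5.97 in any kind. dpr12 stood at 1.23 ± 0.46 in large PDF neurons from ELAV (adjusted p = 0.0590). It was called with all arrays set to a common distribution (adjusted p = 0.0474) and with only the groups compared (adjusted p = 0.0307). dpr19 was called lower there with trend and robust moderation (-0.71, adjusted p = 0.0420). dpr6 was called lower in small PDF neurons than in ELAV with ZT12 arrays only (-1.91, adjusted p = 0.0370).

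**Figure D3:**
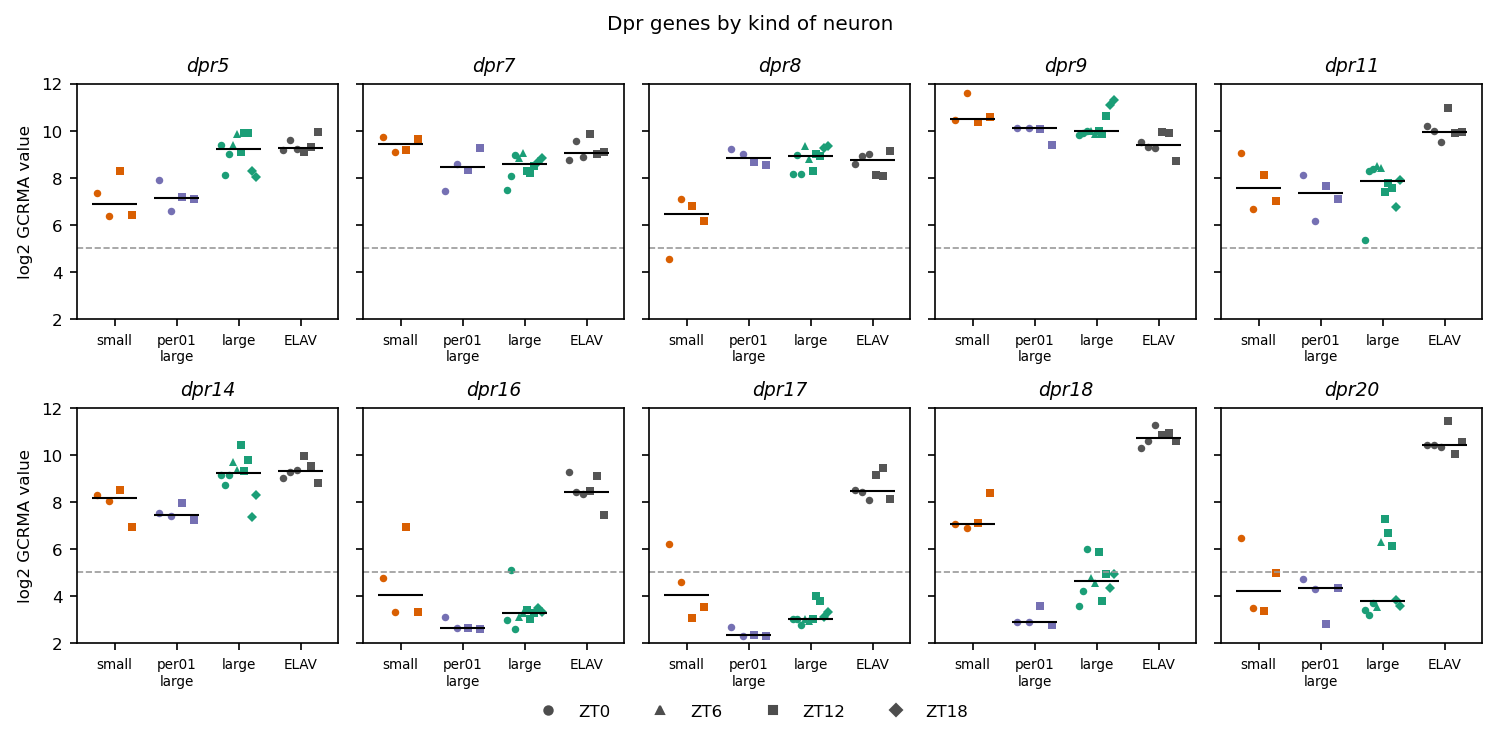
Each point is the log2 value of a Dpr gene on 1 array for the 10 Dpr genes with the differences described, with kinds of neuron along the axis, symbols for zeitgeber time, a bar at the median of the kind and a dashed line at log2 5. The 3 kinds of wild-type neurons occupy separate ranges for dpr18, and small PDF arrays lie lowest for dpr8.

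Between the PDF kinds, 10 of 24 tested members differed, 6 higher and 4 lower in small PDF neurons. The share called among all 8318 probe sets was 17.1%, with 9.14% higher and 7.97% lower. The median difference of the tested members was 0.01, beside 0.03 over all probe sets, so members moved in both directions with no common shift. Higher in small PDF neurons were dpr7, dpr17, dpr18, DIP-beta, DIP-gamma and DIP-iota, and lower were dpr5, dpr8, dpr14 and DIP-delta. dpr17 was higher by 1.09 ± 0.32 (adjusted p = 0.0238), which rested on the small PDF ZT0 arrays: with ZT12 arrays only it was -0.30 (adjusted p = 0.765), and leaving out 1 array ended the call in 3 of 10 cases (adjusted p at most 0.167).

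Markers of other cells also moved between these kinds. The GABA marker VGAT was lower in both PDF kinds than in ELAV neurons and higher in small than in large PDF neurons (1.33 ± 0.39, adjusted p = 0.0238), 1 of 2 GABA markers called there. Also higher in small than in large PDF neurons were the monoamine marker Vmat (2.52 ± 0.40, adjusted p = 0.000305, 1 of 2 tested), the glial marker nrv2 (1.20 ± 0.35, adjusted p = 0.0252, 1 of 3 tested) and the Kenyon cell marker mub (2.19 ± 0.59, adjusted p = 0.0158). The Kenyon cell marker prt was lower (-1.84 ± 0.48, adjusted p = 0.0132), and the other 2 of 4 Kenyon cell markers were not called. No acetylcholine (2), photoreceptor (1) or fat body (1) marker that could be tested was called. Summed over both GABA markers the log2 level was 5.54 to 7.74 on small PDF, 4.42 to 9.55 on large PDF and 13.3 to 14.4 on ELAV arrays. Of 4 haemocyte markers Pxn, the 1 that could be tested, was lower in small PDF than in large PDF neurons (-3.56 ± 0.52, adjusted p = 0.000155), while NimC1 and He were at most at 3.36 on every array and Hml reached 6.73 on 1 large PDF array. Without small PDF ZT0 replicate 1 and large PDF ZT18 replicate 2, the arrays with Gad1 at log2 5 or more, the number of called members was 10 in large PDF against ELAV neurons, 13 in small PDF against ELAV neurons and 9 in small against large PDF neurons. In that fit dpr2 lost its call in small PDF against ELAV neurons (adjusted p = 0.113), dpr7 and dpr17 lost theirs in small against large PDF neurons (adjusted p = 0.110 and 0.187), and dpr9 gained one there (1.00, adjusted p = 0.0430). DIP-beta kept 3.52 from ELAV and 3.63 from large PDF neurons. The part of other cells in the remaining differences was not tested.

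**Figure D4:**
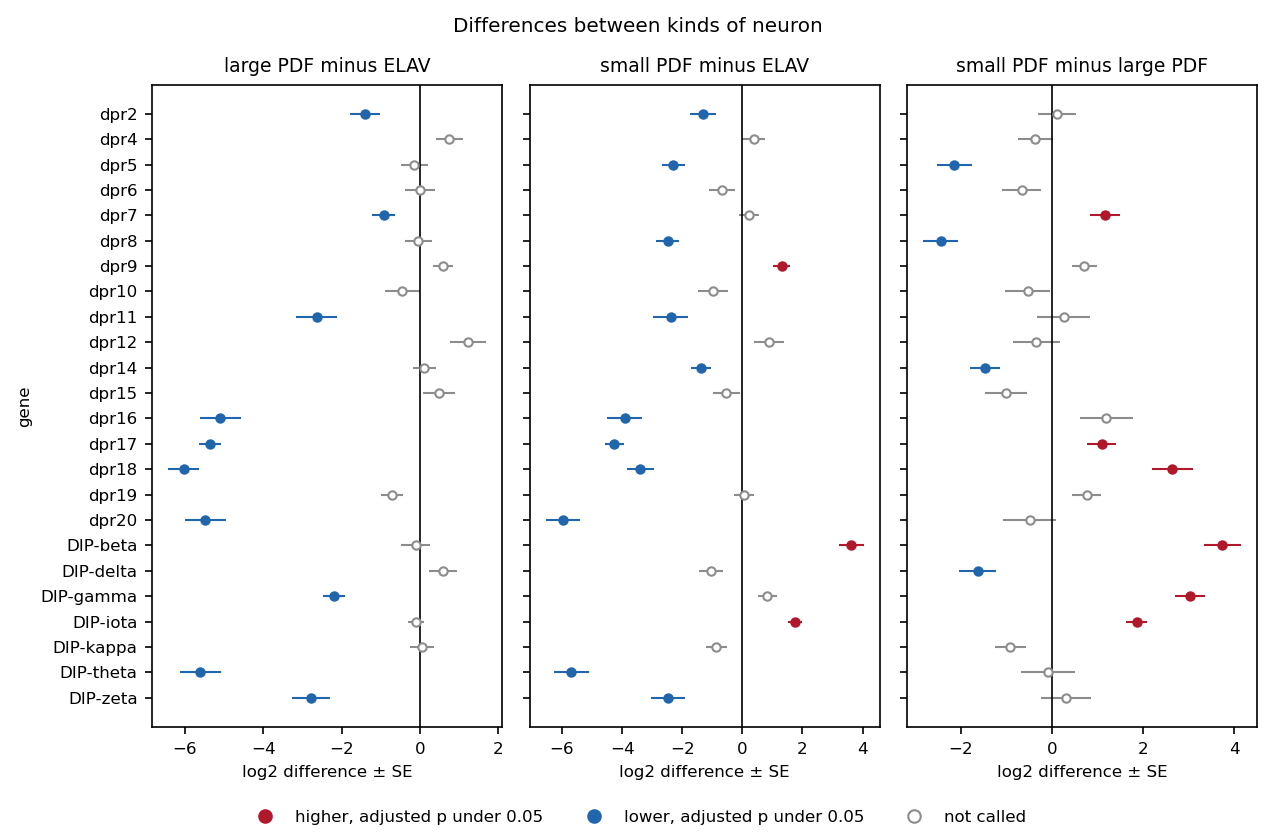
Points give the log2 difference of each of the 24 tested genes for large PDF minus ELAV, small PDF minus ELAV and small PDF minus large PDF, with bars of 1 SE and filled symbols where the adjusted p was under 0.05. Called points lie left of 0 for all 10 called genes in large PDF neurons against ELAV, and on both sides of 0 between the PDF kinds.

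Time of day changed few members. Between ZT12 and ZT0, 1 of 24 tested members was called in large PDF neurons, 3 in small PDF neurons and 0 in ELAV neurons, beside 2.19%, 3.39% and 0.024% of all probe sets. In ELAV neurons 1 member was under an unadjusted p of 0.05. These contrasts rest on 2 or 3 arrays per time, and when only the groups compared were fitted, 0 of 8318 probe sets were called in the large PDF and in the small PDF contrast.

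In small PDF neurons DIP-iota, a receptor of the Dpr1 to Dpr5 group, was at 2.77 and 2.59 at ZT12 and at 6.56 and 5.69 at ZT0. It was at most at 2.77 on large PDF arrays of all 4 times, at most at 3.48 on ELAV arrays and at 2.36 on per01 arrays. The 2 small PDF ZT0 arrays were thus the only ones of the series at which it reached log2 5, so it could enter the test only through them. It was lower at ZT12 than at ZT0 in small PDF neurons, at -3.45 ± 0.35 (adjusted p = 1.77e-05), and this change differed from that in large PDF neurons, at -3.55 (adjusted p = 0.000730), a contrast in which 0.697% of all probe sets were called. Its calls as higher in small PDF neurons than in ELAV (1.76 ± 0.23) and in large PDF neurons (1.85 ± 0.23, adjusted p = 2.98e-05) were lost with ZT12 arrays only (0.21 and 0.08, adjusted p = 0.722 and 0.937). With values under 5 raised to 5 the difference was 1.48-fold in each. The small PDF ZT12 arrays were raised as well, so this is not a lower bound.

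dpr17 and DIP-beta were also called in small PDF neurons, in opposite directions. dpr17 was at 3.07 and 3.51 at ZT12 and 6.22 and 4.59 at ZT0 (-2.12 ± 0.49, adjusted p = 0.0207). DIP-beta was at 8.56 and 9.40 at ZT12 and 6.75 and 6.34 at ZT0 (2.43 ± 0.64, adjusted p = 0.0410). In both genes the arrays of the 2 times did not overlap. The dpr17 call was lost without ZT0 replicate 1 or without ZT12 replicate 1 (adjusted p up to 0.278), and leaving out 1 array ended the DIP-beta call in 4 of 4 cases (adjusted p at most 0.231). Their changes were not called as different from those in large PDF neurons in the main fit, but this depended on the setting. With values under 5 raised to 5 the DIP-beta change was called as different (limma interaction, adjusted p = 0.00479). The dpr17 change was called as different with a filter at log2 7 (-2.78, adjusted p = 0.0464).

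The small PDF arrays of the 2 times also differed in markers of other cells. The acetylcholine marker VAChT was at 3.29 and 3.20 at ZT12 and 5.41 and 5.18 at ZT0, while the other acetylcholine marker, ChAT, was at 6.90 and 2.63 at ZT12 and 2.49 and 7.93 at ZT0, and neither was called. The monoamine marker Vmat was at 9.70 and 7.05 at ZT12 and 2.43 and 2.55 at ZT0 and was called, whereas ple was at 3.96 and 3.98 at ZT12 and 2.92 and 3.99 at ZT0 and was not. No tested GABA, glial, Kenyon cell or haemocyte marker was called between these times. Summed over the list, acetylcholine markers (2 of 2 matched) were at 3.94 to 7.02 at ZT12 and 5.59 to 8.13 at ZT0, and monoamine markers (2 of 3 matched) at 7.22 to 9.72 at ZT12 and 3.70 to 4.44 at ZT0. GABA markers (2 of 2) were at 5.54 to 6.38 at ZT12 and 5.80 to 7.74 at ZT0, and glial markers (6 of 7) at 6.84 to 7.50 at ZT12 and 7.63 to 8.62 at ZT0. The part of these cells in the time differences of DIP-iota, dpr17 and DIP-beta was not tested.

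In large PDF neurons dpr20 was the 1 member called. It was at 3.41, 3.18 and 3.71 at ZT0, 3.51 and 6.27 at ZT6, 7.28, 6.68 and 6.11 at ZT12, and 3.83 and 3.56 at ZT18. The 3 ZT12 arrays lay above all ZT0 and ZT18 arrays, and 1 of the ZT6 arrays lay among them. The difference of ZT12 from ZT0 was 3.25 ± 0.73 (adjusted p = 0.0231), a call that ended in 5 of 6 cases when 1 array was left out (adjusted p at most 0.0745). Over the 4 times, 0 members were called, beside 2.02% of all probe sets, and dpr20 had the lowest adjusted p of the family (0.0594), with 4 members under an unadjusted p of 0.05. On per01 arrays dpr20 was at 2.79 and 4.35 at ZT12 and 4.71 and 4.29 at ZT0. On large PDF ZT12 arrays Gad1 was at 2.78 to 2.94, Vmat at 2.49 to 3.56 and VAChT at 2.99 to 3.31. The other GABA marker, VGAT, was at 4.93, 4.07 and 5.69 there, against 3.77 to 4.43 at ZT0. ChAT was at 2.58, 4.82 and 2.87, against 7.68, 3.58 and 3.27 at ZT0. The glial marker repo was at 5.14, 3.63 and 3.04, against 3.04 to 3.12 at ZT0. The part of other cells in the time difference of dpr20 was not tested.

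**Figure D5:**
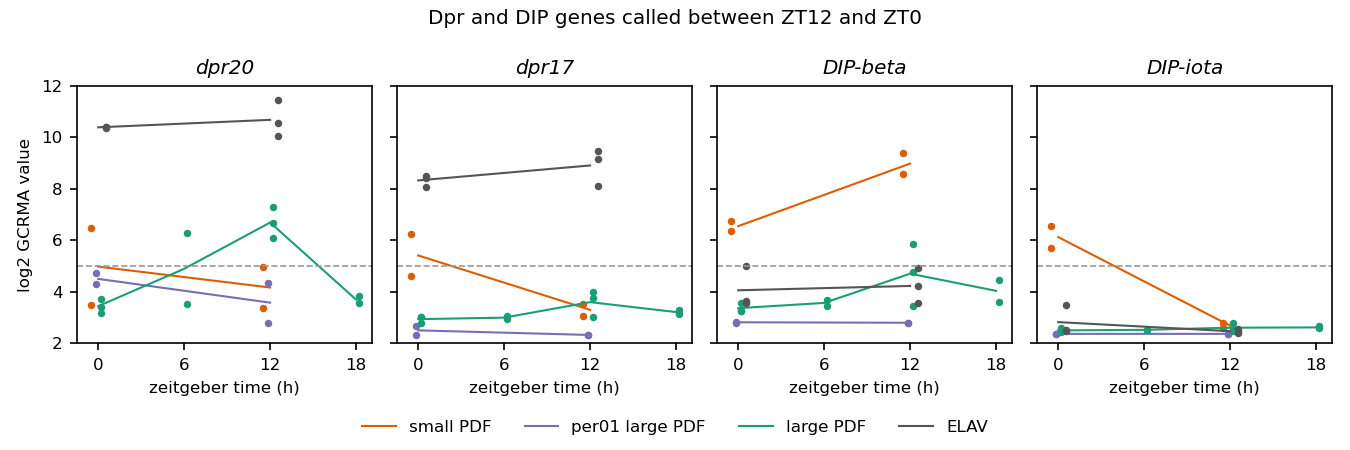
Points give log2 values on single arrays against zeitgeber time in hours for the 4 genes called between ZT12 and ZT0, lines join the group means, points are offset sideways by kind, and the dashed line marks log2 5. DIP-iota is at 6.56 and 5.69 on the small PDF ZT0 arrays and at most at 3.48 everywhere else, and dpr20 in large PDF neurons is highest at ZT12.

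Large PDF neurons of per01 flies had lower deposited values for part of the family. Of 24 tested members 10 were lower and 0 higher than in wild-type large PDF neurons, beside 31% lower and 0.926% higher among all probe sets, and the median of the members was -0.73, beside -0.69 over all probe sets. The median of the members thus lay near that of the whole array, and the per01 arrays had their own distribution of values. After all arrays were set to a common distribution, the median of all probe sets was 0.02, calls among all probe sets split into 287 higher and 327 lower in place of 77 and 2582, and 2 members remained called, dpr5 and dpr14.

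dpr5 was at 7.16 and 7.07 at ZT12 and 7.91 and 6.56 at ZT0 on per01 arrays, against 8.03, 9.23 and 9.91 on wild-type large PDF arrays. No per01 array reached the wild-type range. It was lower, at -2.06 ± 0.38 as deposited (adjusted p = 0.000933) and -1.37 ± 0.38 on the common distribution (adjusted p = 0.0352). dpr14 was at 7.96 and 7.21 at ZT12 and 7.53 and 7.38 at ZT0 on per01 arrays, against 7.35, 9.23 and 10.41 on wild-type arrays. It was lower, at -1.90 ± 0.33 as deposited (adjusted p = 0.000539) and -1.24 ± 0.31 on the common distribution (adjusted p = 0.0210), and 1 wild-type array, at ZT18, lay within the per01 range. The dpr5 call was lost with ZT0 arrays only (adjusted p = 0.0582).

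The other 8 members called as deposited were dpr2, dpr4, dpr6, dpr12, dpr15, dpr17, dpr18 and DIP-beta, with differences of -0.86 to -2.16, and on the common distribution these were -0.20 to -1.23 with adjusted p of 0.152 to 0.846. The change between ZT12 and ZT0 did not differ by a called amount between per01 and wild-type large PDF neurons for any member (lowest adjusted p = 0.277, with 2 members under an unadjusted p of 0.05), beside 0.144% of all probe sets called. The per01 flies were males and the others of both sexes, so genotype, sex and the set of arrays cannot be told apart.

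Read by binding partners, DIP-beta in small PDF neurons was accompanied by dpr9, dpr10, dpr11 and dpr15, 4 of its 6 measured partners that were on in the same kind, while dpr8 missed the rule by 1 array and dpr6 by 1. In large PDF neurons, where DIP-beta was not on, 4 of these 6 were on, and in ELAV neurons all 6. DIP-gamma was on with 2 of its 4 measured partners in small PDF neurons (dpr11 and dpr15) and with all 4 in ELAV neurons. In large PDF neurons DIP-gamma was not on, and the same 2 partners were. DIP-delta was on in large PDF neurons, and its partner dpr12 was at 3.22, 5.11 and 5.97 there and not on in any kind. DIP-kappa and dpr7 were on together in every kind. A DIP and a Dpr in 1 kind of neuron need not meet, since the proteins bind between cells, and these arrays measure neither the protein nor the partner cell.

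Members that lie next to each other in the genome could differ in their pattern. The 30 genes lie on 2L (9), 2R (3), 3L (4), 3R (8), 4 (1) and X (5) in the RefSeq gene table. dpr5 and dpr4 are next to each other on 3R, and dpr5 was on in every kind and dpr4 in none. dpr17 and dpr15 have 1 protein-coding gene between them, and dpr15 was on in every kind while dpr17 was on in ELAV neurons alone. DIP-eta and DIP-theta also have 1 gene between them, and DIP-eta was at most at 3.33 on any array.

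Other families of neuronal surface recognition proteins also held called genes. Among all probe sets 24.4% were called in large PDF against ELAV neurons. The shares were 27.6% in small PDF against ELAV neurons and 17.1% in small against large PDF neurons. Of the beat genes, immunoglobulin proteins that bind the side proteins, 9 of 13 matched were tested: 1 was higher and 4 lower in large PDF neurons than in ELAV, 2 higher and 3 lower in small PDF neurons, and 5 higher and 1 lower in small than in large PDF neurons. beat-IV was at 11.17 to 12.56 on small PDF arrays, 4.85 to 9.86 on large PDF arrays and 8.68 to 9.71 on ELAV arrays, higher in small than in large PDF neurons by 3.81 ± 0.45 (adjusted p = 1.93e-05). Of 6 tested side genes, 1 was higher and 0 lower in large PDF neurons than in ELAV, 1 higher and 2 lower in small PDF neurons, and 2 higher and 1 lower in small than in large PDF neurons. side (-1.74 ± 0.40, adjusted p = 0.00312) and side-VIII (-1.16 ± 0.36, adjusted p = 0.0210) were lower in small PDF neurons than in ELAV. side-IV was at 6.90 to 8.23 on small PDF arrays, 3.12 to 5.07 on large PDF arrays and 2.95 to 4.99 on ELAV arrays, higher in small PDF neurons than in ELAV by 3.77 ± 0.39 (adjusted p = 1.17e-06). Small PDF neurons thus carried both DIP-beta and side-IV above the other kinds.

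Of the other immunoglobulin relatives, Lac was lower in small PDF (-3.57 ± 0.57) and large PDF neurons (-3.89 ± 0.51, adjusted p = 1.98e-05) than in ELAV, and klg was lower in large PDF neurons (-2.93 ± 0.47, adjusted p = 0.000140). Of 32 matched recognition genes of other families 29 were tested. In large PDF neurons 5 were higher and 9 lower than in ELAV, beside 11.9% and 12.5% of all probe sets. In small PDF neurons 7 were higher and 4 lower than in ELAV, beside 13.6% and 14%. Between the PDF kinds 7 were higher and 2 lower in small PDF neurons, beside 9.14% and 7.97%. The adhesion gene rst, of the irre cell recognition module, was at 10.98 to 12.43 on small PDF arrays, 7.94 to 9.77 on large PDF arrays and 5.50 to 9.01 on ELAV arrays (5.03 ± 0.38 in small PDF neurons from ELAV, adjusted p = 2.14e-08). The Toll-family gene 18w was at 3.54 to 5.03 on small PDF arrays, against 6.17 to 9.12 on large PDF and 6.55 to 9.43 on ELAV arrays (-4.07 ± 0.52 from ELAV, adjusted p = 1.33e-05). In per01 large PDF neurons 10 of these 29 were lower and 0 higher, beside the 31% of all probe sets that were lower.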

How the data were processed

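RNA of hand-sorted cells was amplified in 2 rounds and hybridised to Affymetrix arrays, per the labels' protocols. The deposited table holds log2 values, for which the submitters' processing notes name GCRMA and R 2.6. GCRMA subtracts a sequence-based background, brings arrays to 1 distribution and reduces the probes of a set to 1 value. The set of arrays normalized jointly is not stated, and no genome build or sequence was used.

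Of 18952 probe sets, 183 controls were removed and 8318 with log2 5 or more on at least 2 arrays were fitted. Genes were named from the platform annotation of 2016, in which 13647 probe sets carry 1 symbol, 402 several and 4720 none; a probe set shared by DIP-epsilon and another gene was left out. All 30 symbols matched the RefSeq table (Release 6), used for chromosome and gene order. limma 3.58.1 in R 4.3.3 fitted 10 groups over 24 arrays (14 residual and 3.62 prior degrees of freedom, no trend). In contrasts between kinds ZT12 and ZT0 have equal weight, and the ZT6 and ZT18 arrays contribute to the variance alone. The time course used limma's F test. P values were adjusted within each contrast over all fitted probe sets (Benjamini-Hochberg) and called under 0.05. The procedure was tested on simulated data.

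Replicates are biological per the labels, and their number limits the precision. The members, gene lists and tests were chosen with earlier results of these data known. Members on in a kind or called in a contrast are named with values, and from other lists up to 4 called genes per contrast were eligible. Figures used matplotlib 3.10.9 and pandas 2.3.3. Alternatives were no filter, a filter at log2 7, a floor at log2 5, quantile normalization of all arrays together (a common distribution, or requantiled), trend and robust moderation, the replicate number as a block, only the groups compared, all probe sets, other thresholds for on, and leaving out each array; fits with ZT0 or ZT12 arrays only and without the PDF arrays with Gad1 at log2 5 or more were added after seeing the data.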

Additional observations from a re-analysis of the deposited data

Results flagged for a closer look

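Sets of 4 to 10 arrays (a member in a kind of neuron) were screened where at least 1 array reached log2 5. Of 78 such sets, 11 held 1 array far from the others. dpr16, DIP-alpha and DIP-theta in large PDF neurons and DIP-theta in small PDF neurons reached log2 5 on the far array alone. They entered the screen through it, and the sets also pool times of day, so no rate of chance is set beside this count. On ELAV ZT12 replicate 1, dpr2 was at 7.60 (next array 5.46), dpr20 at 11.46 (next 10.55) and dpr19 at 9.80 (next 10.61). On ELAV ZT12 replicate 2, DIP-kappa was at 6.61 (next 7.39). On large PDF ZT0 replicate 2, dpr16 was at 5.08 (next 3.49) and DIP-alpha at 5.01 (next 4.12). On that array the glial marker Gs2 was at 9.53 and the glial marker repo at 3.12. The part of glia there was not tested. DIP-theta was at 6.87 on large PDF ZT12 replicate 2 (next 3.68) and at 5.19 on small PDF ZT0 replicate 2 (next 3.33). dpr18 was at 8.40 on small PDF ZT12 replicate 2 (next 7.12). On per01 arrays, dpr9 was at 9.40 on ZT12 replicate 2 (next 10.08) and DIP-delta at 4.53 on ZT0 replicate 2 (next 5.42).

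The change of DIP-iota between ZT12 and ZT0 differed between small and large PDF neurons by -3.55 (limma interaction, adjusted p = 0.000730). The call was lost with a floor at log2 5 (-1.12, adjusted p = 0.0553) and with only the groups compared (adjusted p = 0.0949).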

How the results depend on the processing

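Few calls turned their sign under other settings. Over all contrasts, time and per01 included, 984 results of single genes called in the fit above or under another setting were compared. Of these 825 kept their call, 115 lost a call, 42 gained one and 2 turned their sign. The last were dpr2 in small PDF minus ELAV with ZT0 arrays only (0.27) and dpr17 in small minus large PDF with ZT12 arrays only (-0.30). Many of these fits leave out 1 array and share all others, so the results are not independent. Counts of called members stayed within 1.5 times of the count given in large PDF minus ELAV and small PDF minus ELAV under all settings. Without 1 array the count was 9 to 12 in large PDF minus ELAV, 13 to 16 in small PDF minus ELAV and 9 to 11 in small minus large PDF, and with ZT12 arrays only the last fell to 6. In per01 minus wild-type large PDF the 10 calls became 6 with a filter at log2 7, 4 with a floor at log2 5, 2 requantiled, 2 with ZT0 arrays only, 6 with ZT12 arrays only and 6 to 10 without 1 array, with 6 without per01 large PDF ZT0 replicate 2. Without 1 array dpr2 (5 of 10 fits), dpr17 (9), DIP-beta (6) and dpr15 (1) lost their per01 calls. In ZT12 minus ZT0 of large PDF the 1 call became 0 with no filter, 0 with only the groups compared and 0 to 3 without 1 array. In small PDF the 3 calls became 1 with trend and robust moderation, 0 with only the groups compared and 1 to 3 without 1 array, with 1 without ZT12 replicate 1 and 1 without ZT0 replicate 1. The time course of large PDF, with 0 calls, had 1 with a filter at log2 7, 1 requantiled, 2 with trend and robust moderation and 0 to 1 without 1 array. The difference of time change between small and large PDF had 0 calls with only the groups compared and 1 to 3 without 1 array. The cause of these changes was not tested. Deviations from the group means in 96 same-numbered pairs of arrays correlated at -0.158 to 0.139, 4 of them over 0.1. Between groups of 2 arrays both replicates necessarily give the same value, so these are not 96 separate observations. Whether replicate numbers pair the samples is thus not settled by them. With the replicate block, ZT12 minus ZT0 of large PDF had 2 calls (dpr20 higher and dpr10 lower) and the time course 1, and dpr2 lost its call in small PDF minus ELAV (adjusted p = 0.0502) and dpr17 in small minus large PDF (adjusted p = 0.0645). Values under log2 5 are mostly background, and differences that reach under it are uncertain in size.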

Other observations

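dpr10 varied among the large PDF arrays of 1 time. It was at 8.61, 9.01 and 8.93 at ZT0, 8.43 and 8.45 at ZT6, 4.96, 6.66 and 8.68 at ZT12, and 8.97 and 9.42 at ZT18. The first and second ZT12 arrays lay below all others, and the third among them. The difference of ZT12 from ZT0 was -2.09 ± 0.63 and was not called (adjusted p = 0.0863). Of 6 fits without 1 array, 1 called it, the fit without the third ZT12 array (-3.04, adjusted p = 0.00609). That array is the 1 of its time that did not lie below the others, so this call follows from the array left out.

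dpr9 in large PDF neurons was at 9.83 to 9.98 at ZT0, 9.86 to 9.97 at ZT6, 9.85 to 10.61 at ZT12 and 11.09 to 11.31 at ZT18. Both ZT18 arrays lay above all others, and the time course was not called (adjusted p = 0.200). On 1 of these ZT18 arrays Gad1 was at 9.51 and on the other at 2.98.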
